A study of Mus musculus with 3 samples.

Results

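The 10 genes of the TGF-beta and BMP pathway and of the Id family studied here, namely Tgfb1, Tgfbr1, Tgfbr2, Eng, Smad6, Smad7, Skil, Id1, Id2 and Id3, were followed through 3 single-cell libraries of mouse bone marrow. They were chosen by name and make up 10 of the 27998 genes listed. In mCherry, the library of cells that carry the AML1-ETO fusion, Id1, Id2, Id3, Eng and Tgfbr2 stood 5.46-fold to 13.4-fold above control. Tgfb1 stood 2.12-fold above it, Smad7 differed little (1.08-fold, and 0.841-fold when every cell is thinned to equal depth) and Skil was lower (0.78-fold). In thinned cells the differences from control were smaller for Id2, Id3, Tgfbr2 and Tgfb1 and larger for Skil. Inside the mCherry library these genes parted: Id1, Id3, Smad7 and Skil followed the immediate early genes of the cell, and Eng, Tgfb1, Tgfbr1 and Tgfbr2 were nearly level across them.

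All 3 libraries hold bone marrow cells of C57BL/6 mice, sorted as negative for DAPI (a stain that enters dead cells) and for lineage markers and positive for c-kit, a receptor of blood progenitors. The control library came from 1 wild-type mouse. Both other libraries, non_mCherry and mCherry, came from 1 further mouse, which carried Mx1-Cre and a heterozygous conditional knock-in that joins Runx1 to Runx1t1, with the reporter mCherry downstream. The mCherry cells express the reporter after poly(I:C) induction, and the non_mCherry cells of the same animal do not. Mx1-Cre answers to interferon, which poly(I:C) elicits, in more cell types than blood cells. The labels give no age, and they leave unsaid if the wild-type animal was also injected with poly(I:C). With 1 library per group no difference below has a replicate check, and the mouse, the fusion, the induction and the kinds of cells in each library cannot be told apart. All intervals are 95% and cover counting error only.

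Ligands of the TGF-beta family bind a pair of type II and type I receptor kinases, which phosphorylate Smad proteins that enter the nucleus and bind DNA. TGF-beta keeps blood stem cells quiescent, and BMP signals act through Smad1 and Smad5. Id proteins are classic BMP targets that bind E proteins and keep them off DNA, and Smad7, Smad6 and Skil are feedback inhibitors of the pathway. Immediate early genes such as Fos, Jun and Egr1 are transcribed within minutes of a stimulus.

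After filters the libraries held 8857 control, 7850 non_mCherry and 10150 mCherry cells, with 143339512, 86852479 and 92048702 UMIs and medians of 15416, 9241.5 and 8173.5 UMIs per cell. Between any pair of libraries 16 to 36 kept cell barcodes were shared, and 0 were shared by all 3. The mCherry library stood apart: Malat1, a nuclear RNA, was at 19778 CPM (the summed UMIs of a gene divided by all UMIs of the library, in the usual CPM unit) against 4830 in control and 5316 in non_mCherry. All 10 listed immediate early genes were at least 2-fold above control there, and they summed to 1994 CPM in control, 2144 in non_mCherry and 14301 in mCherry. Median mitochondrial shares were 1.87%, 1.87% and 2.50%. Stem cell markers summed to 141, 128 and 1255 CPM, and Cpa3, a mast cell protease gene, was at 96.5, 183 and 10471 CPM. Of the 8 listed stem cell markers, 5 were at least 2-fold above control in mCherry and 0 were lower by that fold. The largest parts of the mCherry sum were Ly6a (659 CPM, against 7.38 in control) and Hlf (295 CPM, against 22.9 in control). Hoxa9 was at 18.03 CPM in mCherry against 32.64 in control, Mecom at 6.38 against 5.35 and Mllt3 at 23.59 against 18.21. Of 8 listed endothelial markers, which matter for Eng, 6 were at least 2-fold above control in mCherry. Cdh5 had 2, 3 and 1 UMIs and Kdr was at 0.55, 0.31 and 1.51 CPM, while Egfl7 was at 82.7, 82.9 and 697 CPM and Pecam1 at 41.6, 43.5 and 140 CPM. Esam was at 2.64, 2.10 and 32.9 CPM and Emcn at 2.73, 1.23 and 10.3 CPM. Tek was at 2.31, 1.73 and 6.27 CPM and Plvap at 2.32, 3.59 and 3.67 CPM.

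The promoters of 7 of the 10 genes matched RefSeq windows of 250 bases upstream of the start (build GRCm38.p6), in 8 windows, since Tgfbr1 has 2. Those of the 3 receptor genes are shown, because the level of these receptors moved little with the immediate early genes inside mCherry. Capitals mark GAGGAA (in Eng as its reverse complement) and GGCGCC. The Eng window is chr2:32646345-32646594 on the plus strand, that of Tgfbr1 chr4:47352972-47353221 on the plus strand and that of Tgfbr2 chr9:116175364-116175613 on the minus strand, each written 5′ to 3′ on the strand of the gene.
Eng: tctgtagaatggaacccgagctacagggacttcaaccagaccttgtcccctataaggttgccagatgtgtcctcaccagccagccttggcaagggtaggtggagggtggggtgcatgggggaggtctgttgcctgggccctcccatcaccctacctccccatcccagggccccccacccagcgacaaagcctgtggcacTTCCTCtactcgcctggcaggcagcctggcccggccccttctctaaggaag
Tgfbr1: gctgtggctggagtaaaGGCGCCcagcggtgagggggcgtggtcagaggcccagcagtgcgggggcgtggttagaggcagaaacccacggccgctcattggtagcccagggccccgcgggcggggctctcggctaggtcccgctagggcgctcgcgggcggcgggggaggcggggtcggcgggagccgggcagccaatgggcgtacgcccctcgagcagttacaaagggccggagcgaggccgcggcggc
Tgfbr2: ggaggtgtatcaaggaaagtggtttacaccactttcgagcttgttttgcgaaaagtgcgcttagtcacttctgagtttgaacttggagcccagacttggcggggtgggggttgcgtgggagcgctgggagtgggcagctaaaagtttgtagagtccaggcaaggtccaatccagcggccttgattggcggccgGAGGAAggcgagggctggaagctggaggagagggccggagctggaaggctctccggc
GAGGAA, an ETS core of the PU.1 kind, lies 51 bases before the Eng start and 57 bases before the Tgfbr2 start. It occurs on either strand in 23.3% of 32851 windows of this length and in windows of Eng, Id3, Tgfbr1 and Tgfbr2. GGCGCC, bases bound by BMP Smads, lies 233 bases before the Tgfbr1 start and occurs in 9.59% of all windows and in those of Id2 and Tgfbr1. CAGACA, which holds the Smad box, occurs in 17.1% of all windows and in 1 of the 8. TGTGGT, the RUNX core, occurs in 14% of all windows and in 0 of the 8. These are matches of letters only.

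Tgfb1 (chr7:25687002-25705077, plus strand), which encodes the TGF-beta1 ligand, was the only ligand of the group. Control had 271 CPM (268 to 274), non_mCherry 261 CPM (258 to 264) and mCherry 573 CPM (568 to 578). The control and non_mCherry levels were close (0.963-fold), and mCherry stood 2.12-fold above control (2.09 to 2.14) and 2.20-fold above non_mCherry (2.16 to 2.23). With every cell thinned to 4000 UMIs, 64.9% of control cells, 64.0% of non_mCherry cells and 86.2% of mCherry cells had a Tgfb1 UMI. The means were 1.15, 1.13 and 2.25 UMIs per thinned cell, so mCherry was under 2-fold above control there. In unthinned counts the shares were 92.9%, 84.7% and 95.9%, a narrower spread between libraries of unequal depth.

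Tgfbr2 (chr9:116084293-116175360, minus strand), the type II receptor that binds the ligand first, had 10.6 CPM in control, 12.5 in non_mCherry and 58.1 in mCherry. The mCherry level was 5.46-fold above control (5.16 to 5.78) and 4.64-fold above non_mCherry (4.34 to 4.95). Shares of thinned cells with a UMI were 4.94%, 5.80% and 21.7%, with means of 0.0523, 0.0608 and 0.247 UMIs per cell. Tgfbr1 (chr4:47353222-47414931, plus strand), the type I receptor kinase, was at 8 CPM in control, 8.30 in non_mCherry and 16.8 in mCherry. Its mCherry level was 2.10-fold above control (1.95 to 2.27), but the gene stayed under the floor of 20 CPM in every library and enters no count. Shares were 3.32%, 3.60% and 6.35%.

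Eng (chr2:32646595-32682669, plus strand) encodes endoglin, a co-receptor known from endothelium and blood stem cells. Its level was 27.8 CPM in control (26.9 to 28.6), 30.4 in non_mCherry (29.2 to 31.5) and 194 in mCherry (191 to 197). The level in mCherry was 6.99-fold above control (6.75 to 7.23) and 6.39-fold above non_mCherry (6.13 to 6.66). At matched depth an Eng UMI was found in 10.6% of control cells, 11% of non_mCherry cells and 51.6% of mCherry cells. The highest count of Eng in a thinned cell was 3, 4 and 7 UMIs.

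Of the inhibitory Smads, Smad7 (on chromosome 18) was nearly level: control had 49.6 CPM (48.5 to 50.8), non_mCherry 48.3 (46.9 to 49.8) and mCherry 53.7 (52.2 to 55.2). Its mCherry level was 1.08-fold that of control (1.04 to 1.12). The direction turned when every cell was thinned to 4000 UMIs, at 54.2 CPM in mCherry and 64.4 CPM in control (0.841-fold, 0.792 to 0.893), and the share of thinned cells with a UMI was lower, at 15.6% against 19.1% in control and 19.0% in non_mCherry. Smad6 (chr9:63953076-64022059, minus strand) was the lowest of the members in all 3, at 1.72, 1.30 and 3.59 CPM (247, 113 and 330 UMIs). Its mCherry level was 2.08-fold that of control (1.76 to 2.46), under the floor of 20 CPM. Shares of thinned cells with a Smad6 UMI were 0.619%, 0.503% and 1.5%. Skil (chr3:31095058-31122577, plus strand), which encodes the corepressor SnoN, was the 1 member with its lowest level in mCherry. Control had 21.2 CPM, non_mCherry 22.6 and mCherry 16.6, and the level was 1.28-fold higher in control than in mCherry (1.21 to 1.36). Its shares were 9.72%, 10.3% and 5.76%, with means of 0.113, 0.118 and 0.0690 UMIs per thinned cell.

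Id1 (chr2:152736251-152737410, plus strand), a dominant-negative helix-loop-helix protein, had 12.2 CPM in control (11.7 to 12.8), 14.3 in non_mCherry (13.5 to 15.2) and 87.0 in mCherry (85.1 to 88.9). The mCherry level was 7.11-fold above control (6.76 to 7.5) and 6.07-fold above non_mCherry (5.72 to 6.45). Id2 (chr12:25093799-25097140, minus strand), known for its part in innate lymphoid and dendritic cells, was at 10.2, 12.7 and 66.1 CPM, 6.51-fold above control in mCherry (6.14 to 6.89). In cells thinned to 4000 UMIs the Id2 difference was smaller, at means of 0.0644, 0.0628 and 0.293 UMIs per cell. Id3 (chr4:136143497-136145755, plus strand), known from B and T cell development, had another pattern: 3.51 CPM in control, 43.4 in non_mCherry and 47.1 in mCherry. Both libraries of the knock-in mouse were high, 12.4-fold (11.3 to 13.6) and 13.4-fold (12.2 to 14.7) above control, and mCherry was 1.09-fold above non_mCherry (1.04 to 1.13). With thinned cells that order turned, at 55.1 CPM in non_mCherry and 46.4 in mCherry (0.842-fold, 0.786 to 0.902). The means of Id3 were 0.0179, 0.220 and 0.185 UMIs per thinned cell in control, non_mCherry and mCherry.

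**Figure D1:**
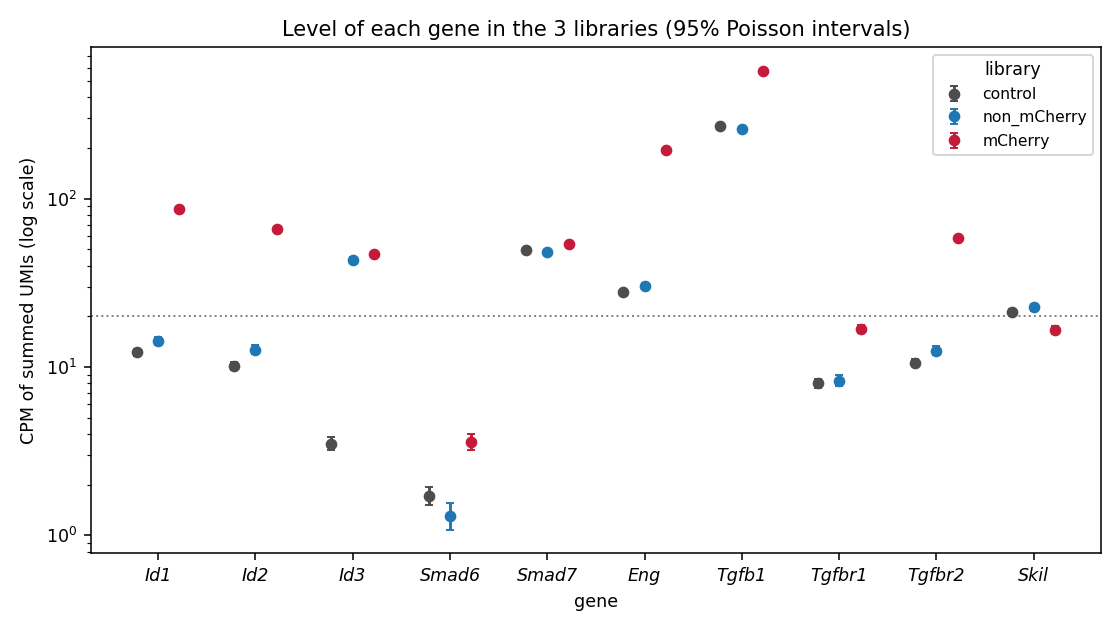
Level of each of the 10 genes in control, non_mCherry and mCherry, in CPM of summed UMIs on a log axis, with points for libraries, bars for 95% Poisson intervals and a dotted line at the floor of 20 CPM. Control and non_mCherry points nearly coincide for all but Id3, where non_mCherry (43.4 CPM) sits beside mCherry (47.1 CPM).

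At matched depth an Id1 UMI was found in 4.04% of control cells, 4.25% of non_mCherry cells and 20.3% of mCherry cells. For Id2 the shares were 2.76%, 3.20% and 16.5%, and for Id3 1.41%, 13.4% and 13.3%. Free RNA in droplets sets a low background to such shares. In control cells with UMIs of both Klf1 and Car1, an erythroid pair, the shares were 0.896% for Id1, 0.64% for Id2 and 0.128% for Id3. The mCherry library had too few cells of that pair for the same value. In mCherry the median cell had UMIs of 2 of the 10 genes, against 1 in control and in non_mCherry, and 2.82% of mCherry cells had none, against 21.2% and 18.2%.

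**Figure D2:**
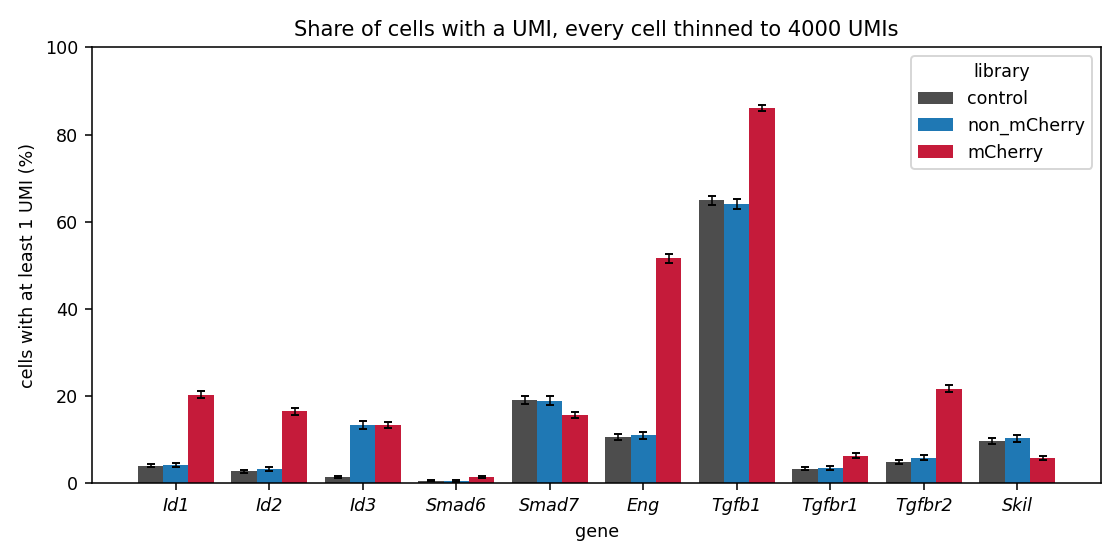
Share of cells with at least 1 UMI of each gene after thinning to 4000 UMIs, with bars for libraries and error bars for 95% Clopper-Pearson intervals. Eng (51.6%) and Tgfb1 (86.2%) are found in most mCherry cells, and Smad7 and Skil are found in fewer mCherry than control cells.

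Counted by a plain quotient of at least 2 and a floor of 20 CPM in 1 of the 2 libraries, 6 of the 8 members above the floor were higher in mCherry than in control (Id1, Id2, Id3, Eng, Tgfb1, Tgfbr2) and 0 were lower. Of all 6580 genes above the floor, 18.5% were higher and 12.3% were lower. Id1, Id2, Id3 and Tgfbr2 passed the floor only through mCherry, so they could enter the count only as higher. For non_mCherry against control 1 of 5 was higher (Id3) and 0 lower, with 1.40% and 0.319% of 5634 genes. Id3 passed the floor only through non_mCherry there. For mCherry against non_mCherry 5 of 8 were higher and 0 lower, with 17.6% and 11.1% of 6570 genes. Of these Id1, Id2 and Tgfbr2 passed only through mCherry and could be counted only as higher. The comparisons share libraries and are not independent of each other.

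Hlf, a transcription factor gene that marks blood stem cells, was used to pick cells that share this marker. The picked cells still differed in kind between libraries. Of cells with a Hlf UMI that were deep enough to thin, 7502 in mCherry had 5 or more thinned Cpa3 UMIs and 298 had fewer. In control 36 had 5 or more and 1663 had fewer. Cells with at least 1 Hlf UMI numbered 1719 in control (19.4%), 666 in non_mCherry (8.48%) and 7963 in mCherry (78.5%), with median depths of 13346, 10298.5 and 8423 UMIs. In these cells Id1 stood at 11.6 CPM in control, at 42.1 in non_mCherry and at 87.4 in mCherry. The 3 libraries thus formed a step for Id1, with mCherry 7.52-fold (6.70 to 8.48) and non_mCherry 3.62-fold (3.09 to 4.25) above control. Id3 was at 3.13, 20.7 and 48.7 CPM and showed the same order. Id2 was at 5.44, 11.4 and 55.7 CPM, 10.2-fold above control in mCherry (8.65 to 12.2). That fold depended on depth: in cells with a Hlf UMI after thinning to 4000 UMIs, which numbered 770 in control and 5861 in mCherry, Id2 was at 16.6 and 59.6 CPM, 3.60-fold (2.72 to 4.86). In such cells Id1 was 9.78-fold above control in mCherry (6.75 to 14.8) and 6.18-fold in non_mCherry (3.93 to 9.96). Matched on summed thinned UMIs of the 10 immediate early genes, these cells showed no clear step up from non_mCherry to mCherry. At 15 or more such UMIs Id1 was at 13.4 CPM in control, 103 in non_mCherry and 107 in mCherry. Id3 was at 1.92, 65.1 and 56.0 CPM there. At 5 to 14, Id1 was at 6.94, 23.3 and 16.7 CPM (10, 11 and 28 UMIs). At 0 to 4, Id1 was at 6.71 CPM in control and 3.82 in mCherry (4 and 10 UMIs). The 70 non_mCherry cells there were under the 100 cells set for a level in these ranges. They held 9 Id1 and 7 Id3 UMIs, against 10 and 4 UMIs in 654 mCherry cells, so both genes were higher per cell in non_mCherry.

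Among the receptors in Hlf-positive cells, Eng was at 36.1, 39.1 and 198 CPM, 5.49-fold above control in mCherry (5.14 to 5.88). Tgfbr2 was at 17.4, 19.2 and 57.8 CPM, 3.33-fold above control (3.02 to 3.68), and Tgfbr1 at 10.8, 9.39 and 16.9 CPM. Non_mCherry over control lay between 0.869-fold and 1.1-fold for these 3 receptors, each with an interval that holds 1, although Eng with thinned cells was at 1.43-fold (1.08 to 1.89). Tgfb1 was at 291, 298 and 571 CPM, 1.96-fold above control in mCherry (1.91 to 2.01) and so just under the fold used. Of the inhibitors, Smad7 and Skil were highest in control Hlf-positive cells, Smad7 at 73.3, 55.0 and 56.0 CPM and Skil at 34.3, 26.6 and 17.0 CPM. Skil was 2.02-fold higher in control than in mCherry (1.85 to 2.20). With Hlf called after thinning both were further apart, 2.18-fold higher in control for Smad7 and 3.15-fold for Skil. Hlf-positive cells with under 5 thinned UMIs of Cpa3, a split made after the data were seen, numbered 298 in mCherry and 1663 in control. Among them the order of Smad7 turned, at 97.8 CPM in mCherry against 73.6 in control (1.33-fold, 1.17 to 1.51), and Skil was at 0.778-fold (0.609 to 0.982). These sets were still unlike, with Cpa3 at 878 against 56.4 CPM and medians of 24.5 against 9 thinned immediate early UMIs. Smad6 was at 1.96, 1.65 and 3.59 CPM.

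Of the 8 members above the floor in Hlf-positive cells, 5 were higher in mCherry than in control (Id1, Id2, Id3, Eng, Tgfbr2) and 1 lower (Skil), with 14% and 10.0% of 6553 genes. Of the 5, all but Eng were under 20 CPM in control and so could be counted only as higher, and Skil passed only through control. For non_mCherry against control 2 of 6 were higher (Id1, Id3), with 0.667% of 5696 genes, and 0 lower, with 0.211%. Both passed only through non_mCherry. For mCherry against non_mCherry 5 of 8 were higher and 0 lower, with 15.2% and 8.39% of 6498 genes. Of these Id2 and Tgfbr2 passed only through mCherry. Within control, cells with a Hlf UMI had more Smad7 (1.65-fold), Tgfbr2 (1.89-fold) and Skil (1.86-fold) than cells without, and less Id2 (2.06-fold lower). With thinned cells that difference in Id2 was not seen, at 16.6 CPM with Hlf and 16.0 without (1.03-fold, 0.758 to 1.38). Within mCherry Id2 was 2.03-fold lower with Hlf, and 1.57-fold lower (1.46 to 1.69) with thinned cells. In mCherry Tgfbr2 did not differ beyond counting error (0.978-fold, 0.913 to 1.05).

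**Figure D3:**
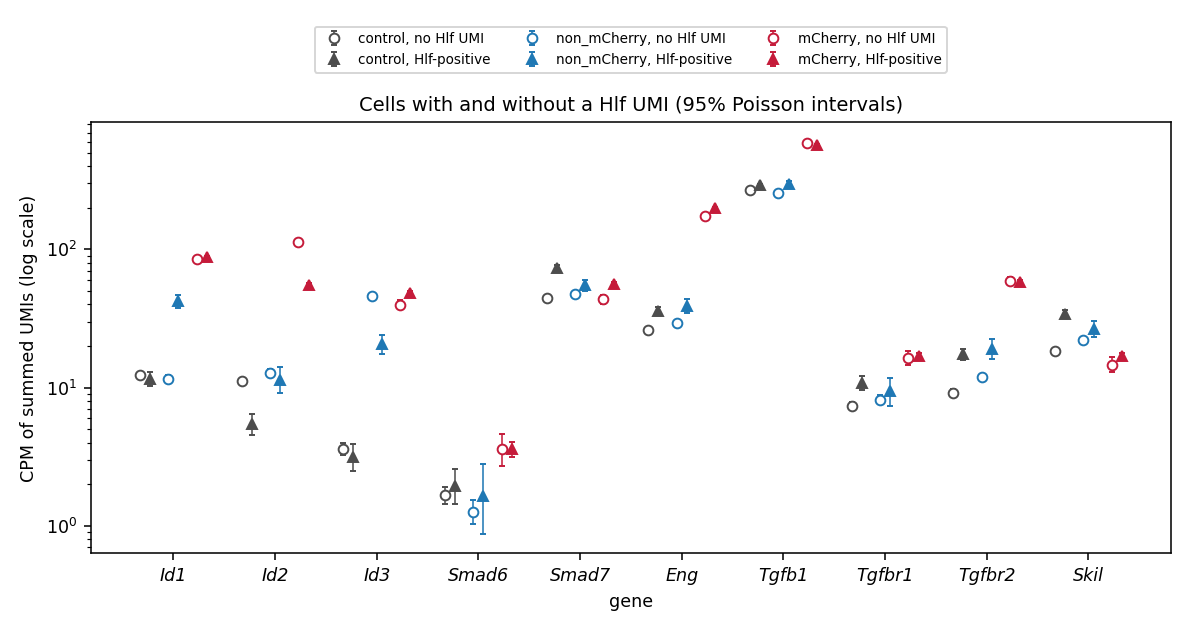
Level of each gene in cells with a Hlf UMI (filled triangles) and without (open circles) in the 3 libraries, in CPM on a log axis with 95% Poisson intervals. Eng, Tgfbr2 and Id2 of mCherry lie above both other libraries in either kind of cell, and Id1 of non_mCherry is higher with a Hlf UMI (42.1 CPM) than without (11.6 CPM).

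The step of Id1 in non_mCherry came in part from few cells. Of its Hlf-positive cells deep enough to thin, 65 had 5 or more thinned UMIs of Cpa3 and 562 had fewer. In the 65 cells Id1 was at 243 CPM, Id3 at 169 CPM, Eng at 125 CPM and Tgfbr2 at 53.1 CPM, and Runx1t1, whose product ETO is joined in the fusion, stood at 8.17 CPM (4 UMIs, 2.23 to 20.9). In the 562 other cells Id1 was at 27.2 CPM, Id3 at 10.0 CPM, Eng at 32.2 CPM and Runx1t1 at 0.137 CPM (1 UMI). The median cell had 35 thinned immediate early UMIs in the first set and 6 in the second. In Hlf-positive mCherry cells with 5 or more Cpa3 UMIs Runx1t1 was at 8.37 CPM (601 UMIs, 7.71 to 9.07). The interval of the 65 cells overlaps this one but rests on 4 UMIs, too few to show that the cells are alike. The 2 sets also differed, with Cpa3 at 5903 CPM in the 65 cells against 10297 CPM and medians of 35 against 59 thinned immediate early UMIs. Between these 2 sets the order of Id1 and Id3 was the reverse of that in all Hlf-positive cells. Id1 was at 87.8 CPM in mCherry, 0.361-fold that of the 65 cells (0.301 to 0.437), and Id3 at 48.0 CPM, 0.283-fold (0.228 to 0.356). Eng was still higher in mCherry, at 201 CPM (1.61-fold, 1.25 to 2.11), and Tgfbr2 was at 57.9 CPM (1.09-fold, 0.744 to 1.67). Control had 36 such cells, too few for a level. Without high-Cpa3 cells, Id1 was still 2.35-fold (1.95 to 2.82) and Id3 3.17-fold (2.28 to 4.42) above control in non_mCherry, and Eng was at 0.886-fold (0.764 to 1.02). This split was chosen after the data were seen.

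The mCherry cells were next ordered by the summed thinned UMIs of the 10 immediate early genes. The median was 60 of 4000 UMIs in mCherry, against 7 in control and 6 in non_mCherry. From the 1016 mCherry cells with 0 to 4 such UMIs to the 1903 with 100 or more, Id1 went from 4.43 CPM to 153 CPM, 34.4-fold (21.7 to 58.3). Id3 went from 2.46 to 53.3 CPM (21.7-fold, 11.7 to 45.5) and Skil from 2.21 to 22.2 CPM (10.0-fold, 5.16 to 22.3). Smad7 went from 7.87 to 53.2 CPM, with its highest level of 70.1 CPM at 30 to 59 UMIs. Id2 was higher at both ends, at 50.2 CPM in the lowest bin, 37.3 CPM at 5 to 14 UMIs and 111 CPM in the highest bin.

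The ligand and the receptors moved far less. Across the same 6 bins of mCherry cells Eng was between 185 and 218 CPM, Tgfb1 between 530 and 605 CPM and Tgfbr2 between 55.7 and 71.6 CPM. From lowest to highest bin Eng changed 0.929-fold (0.851 to 1.01), Tgfb1 0.886-fold (0.843 to 0.932), Tgfbr1 1.30-fold (0.956 to 1.79) and Tgfbr2 1.21-fold (1.04 to 1.41). The lowest and highest bins had median depths of 8398.5 and 7252 UMIs before thinning and median mitochondrial shares of 2.90% and 2.33%. Hlf was at 351 and 249 CPM in them and Malat1 at 14830 and 29227 CPM.

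In control the same order of cells gave a rise for these genes too. From 0 to 4 up to 30 to 59 immediate early UMIs, control Id1 went from 9.96 to 25.2 CPM, Id2 from 6.41 to 78.6 CPM, Smad7 from 28.4 to 112 CPM and Skil from 8.49 to 87.3 CPM. Eng went from 24.5 to 42.5 CPM, Tgfb1 from 247 to 364 CPM and Tgfbr1 from 6.23 to 12.6 CPM there. Tgfbr2 rose from 7.62 to 30.7 CPM (4.02-fold, 2.69 to 5.93), beside 2.53-fold for Id1 (1.65 to 3.77). In non_mCherry, from 0 to 4 up to 60 to 99 such UMIs, Id1 rose 15.5-fold, Id2 22.3-fold and Skil 6.84-fold. Tgfbr2 rose 3.36-fold and Eng 2.44-fold there, and Id3 changed 1.16-fold (0.808 to 1.60). The nearly level receptors were thus seen in mCherry only. The control bins also differed in depth and in kind: median UMIs before thinning went from 19073 to 7894.5, Malat1 from 3767 to 13319 CPM, Cpa3 from 68.0 to 545 CPM and Hlf from 16.5 to 75.5 CPM. The part of these in the rise was not tested. At the same number of immediate early UMIs, mCherry cells thus had less Smad7 and Skil than control cells in each of the 4 bins that both libraries filled. Only 28 control cells had 60 to 99 such UMIs and 6 had more, which is too few for a level.

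**Figure D4:**
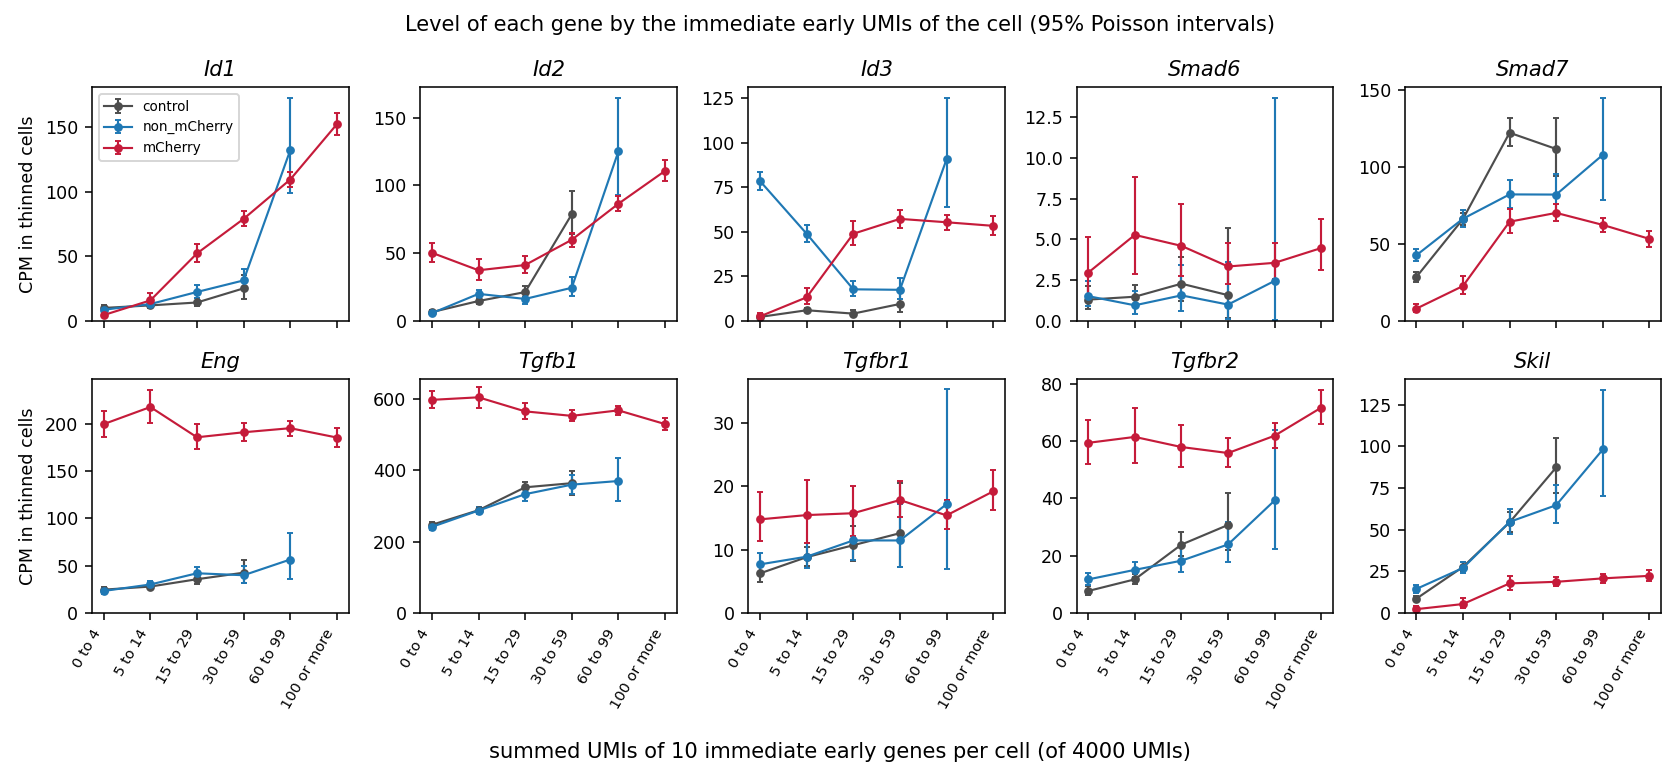
Level of each gene, in CPM of cells thinned to 4000 UMIs, by the summed UMIs of 10 immediate early genes in the cell, with lines for libraries and bars for 95% Poisson intervals (bins of under 50 cells are left out). In mCherry Id1 climbs from 4.43 to 153 CPM, and Eng stays between 185 and 218 CPM.

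Cells were then compared between libraries within matched ranges of immediate early UMIs. At 0 to 4 UMIs (1016 mCherry and 2887 control cells), Id1 was at 4.43 CPM in mCherry against 9.96 CPM in control, 0.445-fold (0.255 to 0.735), the opposite direction to all cells. Id3 was at 2.46 against 2.16 CPM there, within counting error. Smad7 was at 7.87 against 28.4 CPM (0.277-fold, 0.187 to 0.399) and Skil at 2.21 against 8.49 CPM (0.261-fold, 0.116 to 0.516). The difference in Id2 remained, at 50.2 against 6.41 CPM (7.83-fold, 5.98 to 10.4). Eng was at 200 against 24.5 CPM (8.14-fold, 7.10 to 9.36), Tgfbr2 at 59.3 against 7.62 CPM (7.78-fold, 6.07 to 10.1) and Tgfb1 at 598 against 247 CPM (2.42-fold, 2.29 to 2.55). Those 3 were as far from control in these cells as in all cells or further.

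Of the 5 members at or above 20 CPM in 1 of the 2 sets at 0 to 4 UMIs, 4 were higher in mCherry and 1 lower (Smad7), with 22.9% and 10.7% of 6733 genes. Id2 and Tgfbr2 passed the floor there only through mCherry and could be counted only as higher. Smad7 passed only through control and could be counted only as lower. At 15 or more UMIs (8133 mCherry and 1780 control cells) Id1 was at 104 against 16.0 CPM (6.51-fold, 5.4 to 7.91) and Id3 at 54.6 against 5.06 CPM (10.8-fold, 7.76 to 15.5). In that range Eng was 5.26-fold, Tgfbr2 2.48-fold and Id2 2.26-fold above control, and Tgfb1 was 1.57-fold above it. Skil was at 20.1 against 61.8 CPM, 0.325-fold (0.288 to 0.368). Of all genes 10.9% were higher and 8.60% lower in mCherry in that range. This range has no upper end, and mCherry cells filled its upper part. At 5 to 14 UMIs 4 members were higher in mCherry than in control and 2 lower (Smad7, Skil), with 17.6% and 8.70% of 6666 genes. Among them Id2 and Tgfbr2 passed the floor only through mCherry, and Skil only through control.

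Against non_mCherry, 4 members were higher in mCherry at 0 to 4 immediate early UMIs and 2 lower, with 22.1% and 11.1% of 6778 genes. The lower ones were Id3 (2.46 against 78.5 CPM) and Smad7 (7.87 against 42.5 CPM). Both passed the floor only through non_mCherry and could be counted only as lower. Of the higher ones Id2 and Tgfbr2 passed only through mCherry. At 5 to 14 UMIs 3 were higher and 3 lower (Id3, Smad7, Skil), with 17.2% and 7.68% of 6663 genes. There Tgfbr2 passed the floor only through mCherry, and Id3 and Skil only through non_mCherry. At 15 or more 5 were higher and 1 lower (Skil), with 11.9% and 6.03% of 6387 genes. Eng and Tgfbr2 were higher in mCherry than in non_mCherry in each of the 3 ranges.

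Most Id3 UMIs of non_mCherry lay in cells with a UMI of a B lineage gene. With any UMI of Cd79a, Vpreb1, Vpreb3, Ebf1 or Pax5, 4344 non_mCherry cells (55.3%) held 88.8% of the library's Id3 UMIs, against 472 such cells in control (5.33%) and 163 in mCherry (1.61%). A single such UMI can be free RNA, so this set is wider than the B lineage. The narrower set of 777 cells with both Cd79a and Pax5 held 35.1% of the Id3 UMIs. In the 1311 non_mCherry cells with UMIs of both Cd79a and Vpreb1, Id3 was at 212 CPM and was found in 52.8% of thinned cells. With the wider set left out, Id3 was at 10.2 CPM in non_mCherry and 3.19 CPM in control, a difference of 3.20-fold (2.79 to 3.67). B lineage markers summed to 59.6 CPM in control, 1442 in non_mCherry and 48.1 in mCherry. In some sets of other marker pairs Id3 was also above control in non_mCherry. It was 4.07-fold in Elane and Prtn3 cells (8.62 against 2.12 CPM) and 4.08-fold in Irf8 and Ly6c2 cells (15.2 against 3.73 CPM). In Hlf cells without Cma1 it was 9.74-fold (29.5 against 3.03 CPM) and in Klf1 and Car1 cells 2.94-fold (3.03 against 1.03 CPM). In Pf4 and Itga2b cells Id3 did not differ beyond counting error (7.07 against 7.15 CPM, 0.989-fold, 0.422 to 2.15). The part of free RNA in these low levels was not tested. Leaving out the wider set moved mCherry against control little, with Id3 at 47.0 against 3.19 CPM (14.7-fold, 13.3 to 16.3).

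Pairs of marker genes, each with a thinned UMI, gave sets that show where the other members lie. In control Id1 was highest in Prss34 and Mcpt8 cells, a basophil pair, at 35.2 CPM, and lowest in Klf1 and Car1 cells, at 2.00 CPM. Tgfb1 was highest in Pf4 and Itga2b cells, a megakaryocyte pair, at 530 CPM in control and 513 CPM in non_mCherry, while the other control sets lay between 230 and 277 CPM. The level of Tgfb1 in all mCherry cells thus lay near that of control megakaryocyte-pair cells. Smad7, Tgfbr1 and Tgfbr2 were highest in control in Hlf cells without Cma1, at 99.7, 13.3 and 22.7 CPM, but the interval of each overlapped that of the next set. That set was Pf4 and Itga2b for Smad7 (85.8 CPM) and Prss34 and Mcpt8 for Tgfbr1 and Tgfbr2 (22.1 CPM for Tgfbr2). Eng did not exceed 42.0 CPM in any control set (Pf4 and Itga2b) or 47.3 CPM in any non_mCherry set (Hlf without Cma1).

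In mCherry 5151 thinned cells had Hlf without Cma1, a mast cell protease gene, 710 had both and 1442 had Cpa3 with Cma1. The 710 are also among the Hlf-positive cells, and the last set overlaps both kinds. Id2 was the member that differed most among them, at 50.2 CPM in Hlf cells without Cma1, 95.1 CPM with both and 121 CPM with Cpa3 and Cma1. Id1 went the other way, at 90.0, 71.3 and 61.1 CPM, and so did Smad7 (60.4, 46.3 and 38.9 CPM) and Skil (18.3, 13.9 and 10.7 CPM). Eng was at 202, 181 and 175 CPM and Tgfb1 at 567, 531 and 534 CPM. In Hlf cells without Cma1, mCherry was 9.34-fold above control for Id1 (7.57 to 11.7) and 5.94-fold for Id2 (4.74 to 7.55).

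**Figure D5:**
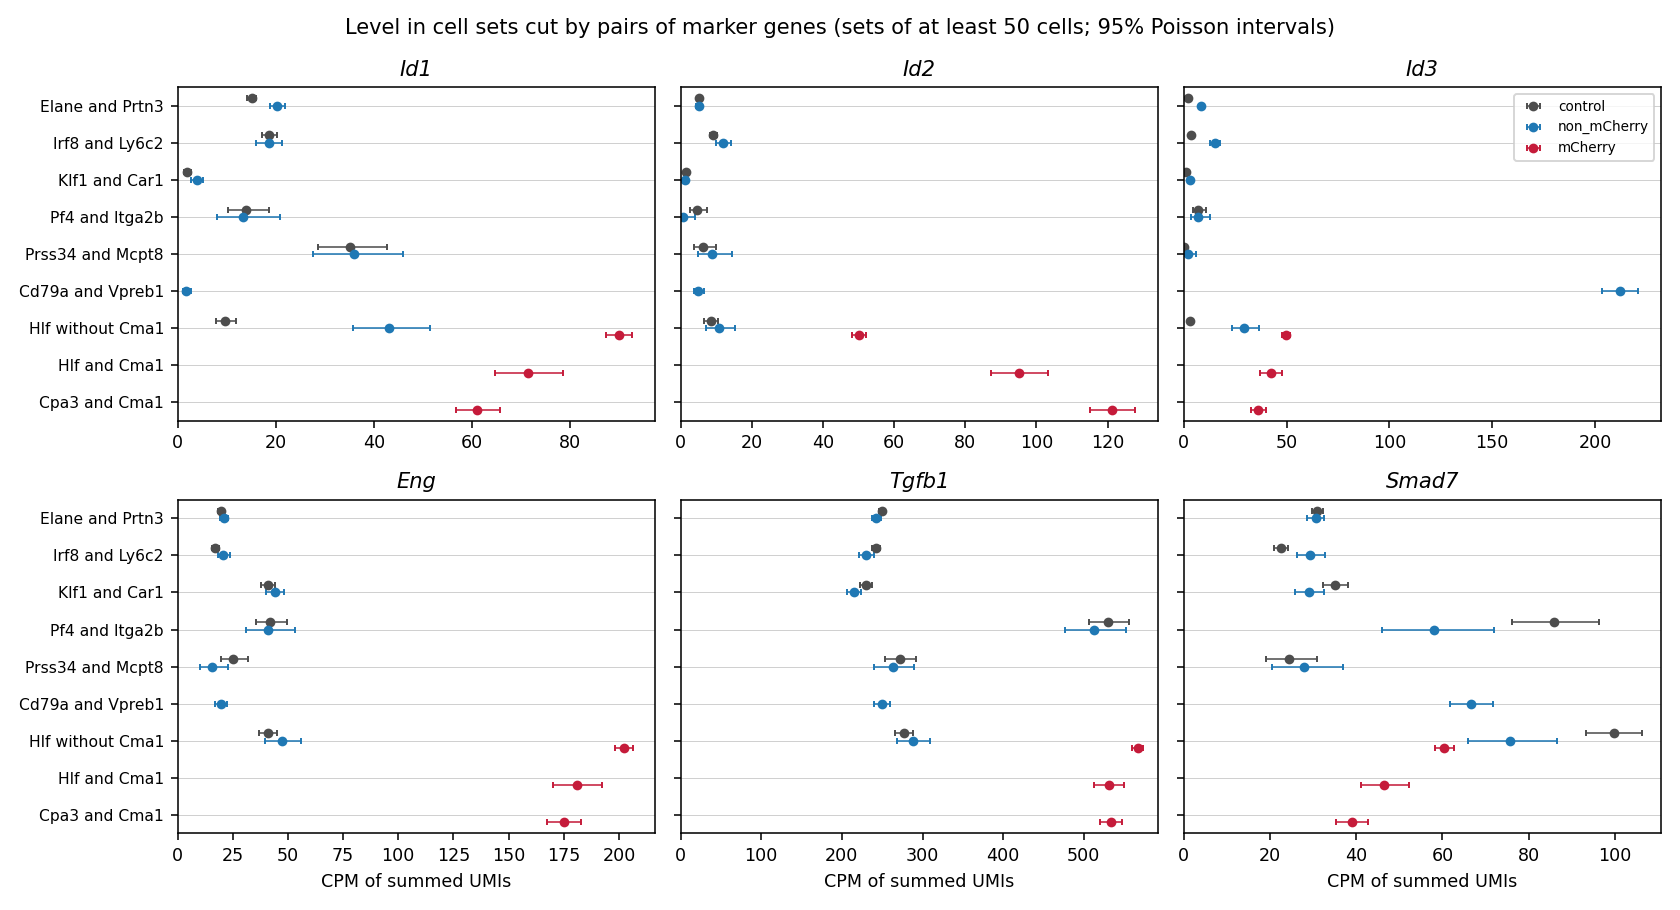
Level of 6 of the genes in sets of thinned cells with UMIs of a pair of marker genes, in CPM of the deposited counts with 95% Poisson intervals, for sets of at least 50 cells. Id3 stands out in the Cd79a and Vpreb1 cells of non_mCherry (212 CPM), and the mCherry sets of Eng lie between 175 and 202 CPM, above every set of the other libraries.

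Across the 9813 thinned mCherry cells, genes were ranked by Pearson's r of log counts with 4 of the members, which is a description over cells that share a library. The genes most like Id1 were Fos (0.236), Junb (0.211), Id3 (0.205), H3f3b (0.196) and Btg2 (0.194). Those most like Id3 were Id1 (0.205), Smad7 (0.204), Nr4a1 (0.166), H3f3b (0.137) and Pde4b (0.137). Eng had weaker likeness, with Egfl7 (0.115), Plscr1 (0.084), Ctla2a (0.084), Cpa3 (0.082) and Clec4e (0.078). Tgfb1 was most like Ctla2a (0.145), Gm15915 (0.122), Cpa3 (0.120), Cd59a (0.111) and F2r (0.095). In the 8562 control cells the highest values were 0.082 for Id1 (Tyrobp), 0.083 for Id3 (Tmsb10), 0.116 for Eng (Ctla2a) and 0.244 for Tgfb1 (Apoe).

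The rest of the pathway was read from 7 lists of 93 genes, of which 34 were above the floor in mCherry or control. Of these, 16 were at least 2-fold higher in mCherry and 2 lower, beside 18.5% and 12.3% of all genes. Of the 2 lower genes, 1 passed the floor only through control, and 9 of the 16 passed it only through mCherry. The other 7 were Fkbp1a, Gadd45b, Junb, Lyl1, Smad4, Tal1 and Tcf4. Between non_mCherry and control 0 of 22 differed by that fold (1.40% and 0.319% of all genes), and 18 of 34 were higher and 1 lower in mCherry than in non_mCherry (17.6% and 11.1%). Of those 18, 10 passed the floor only through mCherry, and the 1 lower gene passed only through non_mCherry. Of the listed receptors 3 passed the floor, all through mCherry alone, so that they could be counted only as higher: Acvr1b, an activin type I receptor, at 73.5 against 5.69 CPM (12.9-fold), Tgfbr3, the co-receptor betaglycan, at 72.4 against 10.7 CPM (6.74-fold) and the BMP type II receptor Bmpr2 at 51.2 against 11.7 CPM (4.38-fold). The other 9 of the 12 were under the floor, among them Bambi, a decoy receptor, which was lower in mCherry (6.51 against 13.4 CPM). Among the Smads, the BMP effectors Smad1 (102 against 19.5 CPM, 5.22-fold) and Smad5 (60.7 against 14.1 CPM, 4.31-fold) and the common Smad4 (58.8 against 27.9 CPM, 2.10-fold) were higher, and Smad2, an effector of TGF-beta and activin, was level (1.04-fold).

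Among genes described as induced by TGF-beta or BMP, Gadd45b (278 against 25.7 CPM, 10.8-fold), Junb (2312 against 278 CPM, 8.31-fold) and Bhlhe40 (35.8 against 5.73 CPM, 6.24-fold) were higher, and 3 of the 6 above the floor lay within 2-fold. Junb encodes a subunit of AP-1 and is itself often counted as an immediate early gene. Of the ligands Gdf15 was higher (22.6 against 2.28 CPM, 9.91-fold) and Gdf3 lower (5.69 against 39.3 CPM). Furin, a protease that cleaves ligand precursors, was at 56.8 against 17.1 CPM (3.33-fold). Fkbp1a, which holds type I receptors inactive, was at 422 against 144 CPM (2.93-fold), and Strap, a partner of Smad7, was lower at 92.6 against 186 CPM. Of the listed E protein genes and genes of E protein partners, Tal1 (2.40-fold), Lyl1 (2.18-fold) and the E protein gene Tcf4 (2.18-fold) were higher in mCherry. Tcf3, the E2A gene, was at 55.3 against 70.6 CPM.

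Inside mCherry the wider genes divided along the immediate early genes as the members did. From the lowest to the highest bin of mCherry cells, Junb went from 151 to 4659 CPM (30.8-fold), Gdf15 16.6-fold, Cdkn1a 14.4-fold, Bhlhe40 9.68-fold and Gadd45b 5.43-fold. Acvr1b (1.01-fold), Smad4 (1.01-fold), Smad1 (1.03-fold), Tgfbr3 (0.950-fold) and Bmpr2 (0.916-fold) kept their level, and Smad5 fell to 0.717-fold. In control most of these rose from 0 to 4 up to 30 to 59 such UMIs: Tgfbr3 4.15-fold, Acvr1b 2.31-fold, Smad1 2.21-fold and Bmpr2 2.03-fold. Smad4 (1.36-fold, 0.984 to 1.85) and Smad5 (0.967-fold, 0.559 to 1.58) did not differ beyond counting error there. At 0 to 4 immediate early UMIs Acvr1b was 18.3-fold, Tgfbr3 11.3-fold, Smad1 6.52-fold, Bmpr2 6.1-fold and Smad5 5.58-fold above control. Junb was 1.28-fold and Gadd45b 3.55-fold above it there.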

How the data were processed

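The deposited files of each library are a matrix of UMI counts, made by the authors, with its barcodes and gene list. The submitters' processing notes name Cell Ranger 6.1.2 and mm10, the matrix header names software version 3.1.0, and the files do not settle which applies. Whether counting used strand is not given in the sources used here. Of 27998 gene identifiers, 27645 matched GENCODE, the source of locations.

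Barcodes with at least 1000 genes, at least 2000 UMIs and at most 10% mitochondrial UMIs were kept, and Scrublet scores (scanpy 1.11.5) above 0.25 removed 209 control, 206 non_mCherry and 269 mCherry cells as doublets. CPM are summed UMIs over the total, with exact Poisson intervals. Fold values are plain quotients with exact binomial intervals, and 1 library per group allows no test. For shares and immediate early ranges each cell was thinned to 4000 UMIs, leaving out 295 control, 1095 non_mCherry and 337 mCherry cells. Counts used a 2-fold quotient and a floor of 20 CPM (over 1000 UMIs in each library). Sets and finer bins needed at least 50 cells, and matched immediate early ranges at least 100. The 3 UMIs that a count of 0 allows are 0.021 to 0.035 CPM. The quotients and intervals were tested on simulated counts. Alternatives changed scaling, filters, depth, floor, fold, Hlf threshold and immediate early range.

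Named genes are the 10 members, wider genes above the floor with a 2-fold quotient (up to 12 a comparison) and the 5 genes most correlated with Id1, Id3, Eng and Tgfb1. Wider genes within 2-fold and Cdkn1a were named after their values were seen. The members and lists were chosen with earlier results of these data known.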

Additional observations from a re-analysis of the deposited data

How the results depend on the processing

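Each group is 1 library, so no library could be left out and no paired analysis was possible because no group has a second replicate. Of the counts of genes, 118 alternatives kept within 1.5 times the value given and 28 did not. Of the values of single genes 217 moved by less than their counting interval, 171 moved by more, and of those 2-fold in the value given 2 turned: at 0 to 4 immediate early UMIs the log2 ratio of Id1 was -1.17 for mCherry minus control and -0.95 for mCherry minus non_mCherry. With smaller differences counted, 31 of 330 log2 ratios took the other sign, 7 of them past 2-fold. Besides Id1 these were Smad7 at 0 to 4 and 5 to 14 UMIs (-1.85 and -1.55 for mCherry minus control, -2.43 and -1.55 for mCherry minus non_mCherry) and Id3 for mCherry minus non_mCherry (-5.00 and -1.89). Thinning turned Smad7 (-0.25 for mCherry minus control) and Id3 (-0.25 for mCherry minus non_mCherry). Median-of-ratios scaling shifted log2 ratios by at most 0.022. Over the ranges 0 to 4, 5 to 14 and 15 or more immediate early UMIs, members lower in mCherry than control numbered 1, 2 and 1, and members lower than in non_mCherry 2, 3 and 1. Members higher in mCherry than non_mCherry came to 3 at 5 to 14 UMIs, and members higher in non_mCherry than control to 2 at 15 or more. Of wider pathway genes, those lower in mCherry than control were 1 with median-of-ratios scaling, 5 with a floor of 5 CPM and 4 at 5 to 14 UMIs, and those higher were 10 at 5 to 14 UMIs. Lower than in non_mCherry were 3, 3 and 3 over the ranges, and 1 was lower in non_mCherry than control with a floor of 5 CPM. In Hlf-positive cells, members lower in mCherry than control were 0 without Cma1 cells, 0 without the doublet score, and 2 and 2 at 5 to 14 and 15 or more UMIs, and members higher were 3 at 5 to 14. Against non_mCherry, higher members were 3 with at least 2 Hlf UMIs, 3 at 5 to 14 and 1 at 15 or more immediate early UMIs. Lower members were 1 with at least 2 Hlf UMIs, 1 with Hlf after thinning, 2 at 5 to 14 and 1 at 15 or more. The cause of these changes was not tested. The finer bins, the Cpa3 split, the B lineage cells left out, levels from thinned Hlf cells, the matched ranges within Hlf cells and those of the wider genes were chosen after seeing the data. Smad6, Tgfbr1 and sets of under 50 cells are limited by depth.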
